A study of Mus musculus with 6 samples.

Results

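The 9 genes described here encode proteins that carry or export lipid, take up lipoproteins and amyloid beta, or degrade amyloid beta: the lipid carriers *Apoe*, *Clu* and *Apod*, the lipid exporter *Abca1*, the endocytic receptors and adaptors *Lrp1*, *Sorl1* and *Picalm*, and the proteases *Mme* and *Ide*. They were chosen by symbol, and all 9 were found among the 32287 genes of the deposited tables. Single cells were released from cerebral microvessels captured on CD31-coated beads, from one cerebral hemisphere of each of 6 mice, with 1 droplet library per mouse. The WT group held 3 C57BL/6J mice, and the ArcSwe group held 3 mice of the genotype given as AppArcSwe. ArcSwe mice carry a human amyloid precursor protein transgene and are described by the study as a model with amyloid beta both in plaques and on vessels at this age. All 6 mice were untreated males of 12 months. The promoter of the transgene and the number of founder lines are not given in the sources used here, and the human sequence was not a row of the count tables, so the genotype labels could not be checked against the transgene. Each library is a separate mouse by its label, and whether WT and ArcSwe mice were littermates is not stated.

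In the brain, lipid is moved between cells on particles built around apolipoprotein E and clusterin, which are filled through ATP-binding cassette exporters and taken up by a family of lipoprotein receptors. The same particles and receptors bind amyloid beta, which can leave the brain across the vessel wall after uptake by LRP1 and clathrin-mediated transport assisted by PICALM, or be cut by neprilysin, the product of *Mme*, and by insulin-degrading enzyme. Apolipoprotein E is best known as a product of astrocytes, and it is also made by macrophages and by microglia that have left the homeostatic state.

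The libraries held 2907 to 14928 barcodes each, 49059 in all, of which 44112 passed the study's limits on genes and mitochondrial counts, and 283 barcode sequences occurred in 2 or more libraries. Transcripts were counted by unique molecular identifiers (UMIs), summed per mouse over the cells of a class and given as counts per 1000000 UMIs of that class and mouse (CPM), a scale that compares a gene between classes and mice but not one gene with another. The summed classes were 3300 arterial, 11935 capillary and 2704 venous endothelial cells, 2862 smooth muscle cells, 353 pericytes (17 to 172 per mouse), 6520 microglia (221 to 2018 per mouse) and 53 perivascular macrophages. The classes were named from marker lists, so the sums of these markers describe the classes and are no independent check of them. The 8 microglial markers summed to 10958 to 14966 CPM in microglia and to at most 625 CPM in endothelial zones. Zone cells in which *Cx3cr1* or *Aif1* was detected had been set aside, so the low endothelial value was partly fixed beforehand. The 7 smooth muscle markers summed to 37862 to 41186 CPM in smooth muscle and to at most 2205 CPM in pericytes. WT 3 and ArcSwe 3 stood apart from the other libraries. They had the most barcodes and the fewest UMIs per cell, with medians of 3271.5 and 2922 against 3958 to 5542 in the other 4, and in capillary and venous endothelium, smooth muscle and pericytes the highest levels of erythroid and microglial marker transcripts. ArcSwe 2 was the smallest library. Microglia were deep in WT 1 and WT 2, with medians of 5874 and 5129 UMIs per cell, and shallow in the other 4 mice, with medians of 1073 to 1996. As the reference for RNA picked up from the suspension, lymphocytes, which are not known as a source of *Apoe* or *Clu*, gave 135 to 765 CPM for *Apoe* and 0 to 14.98 CPM for *Clu*.

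The members fell into distinct patterns across the vessel wall. Among the vascular and myeloid classes with sums from all 6 mice, *Clu* was highest in arterial endothelium and *Apod* in venous endothelium. *Lrp1* was highest there in pericytes and microglia, and *Abca1*, *Sorl1* and *Picalm* in microglia. *Apoe* was high in the endothelial zones and on average higher in microglia, which exceeded venous endothelium in 4 of 6 mice. In the 2 mice with enough perivascular macrophages, *Apoe* and *Abca1* were higher there than in any of these classes, as was *Apod* in WT 3 but not in ArcSwe 3. *Ide* was present in all 6 tested classes, and *Mme* was scarcely detected. The order of the class means was examined with 45 exact two-sided sign-flip permutation tests of the paired difference in log2(CPM + 1) between neighbouring classes, over 6 mice. In 19 of the 45 pairs the higher class was higher in 6 of 6 mice, which gives p = 0.031, the smallest the exact permutation test over 6 mice allows. After Benjamini-Hochberg adjustment over the 45 pairs these stood at 0.074, so that no pair passed 0.05. With 19 pairs at the smallest p, no pair could have passed, however large its difference. The members were left out of the genes on which the cells were clustered.

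**Figure D1:**
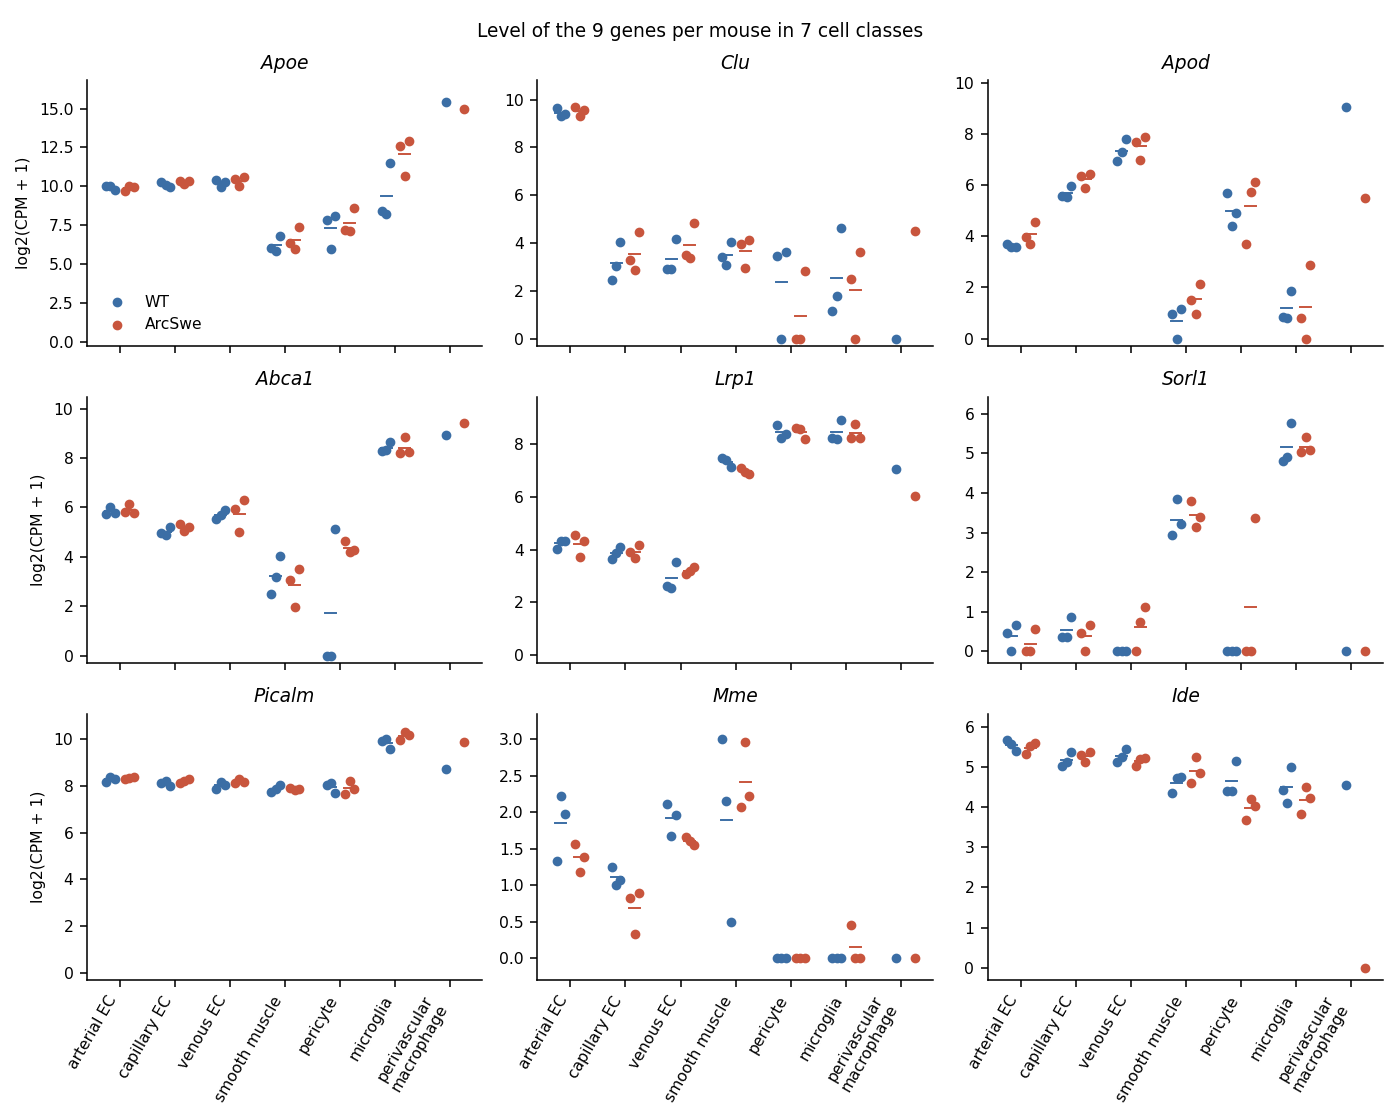
Level of each of the 9 genes, as log2(CPM + 1), in the summed cells of 7 classes; each point is 1 mouse (blue WT, red ArcSwe) and each short line the mean of a genotype. Perivascular macrophages are shown for WT 3 and ArcSwe 3, which had 20 and 17 such cells. *Clu* is highest in arterial endothelium and *Apoe* in perivascular macrophages, and in microglia *Apoe* of WT 3 lies among the ArcSwe mice.

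Among the lipid carriers, *Apoe* (chromosome 7, 19696109 to 19699188, minus strand, GRCm38) was abundant in all 3 endothelial zones. In capillary endothelium it stood at 1228, 1064 and 993 CPM in WT 1, 2 and 3 and at 1268, 1155 and 1278 CPM in ArcSwe 1, 2 and 3. In arterial endothelium it ranged from 840.4 to 1047 CPM and in venous endothelium from 1003 to 1541 CPM. These levels exceeded the lymphocyte reference in every mouse. Capillary exceeded arterial endothelium in 6 of 6 mice, by 0.27 ± 0.20 on the log2 scale (SD, n = 6), whereas venous and capillary endothelium were not separated (difference 0.10 ± 0.19, 4 of 6 mice). Pericytes and smooth muscle were low, with 60.1 to 394 CPM and 56.7 to 164 CPM. All 6 smooth muscle sums lay under the lymphocyte reference of the same mouse. Mural cells assigned to neither class, which were not compared, differed by cluster. Over all mice, *Apoe* stood there at 3322 and 1456 CPM in clusters of 89 and 64 cells and at 63.6 CPM in a cluster of 258 cells.

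*Clu* (chromosome 14, 65968483 to 65981547, plus strand) showed the sharpest restriction. In arterial endothelium it stood at 810.4, 637 and 674 CPM in the WT mice and at 836, 628 and 748 CPM in the ArcSwe mice. None of the other 6 classes exceeded 28.1 CPM, and the arterial level lay 5.85 ± 0.76 log2 units above that of venous endothelium, the next class (6 of 6 mice). The capillary level of 4.58 to 21.5 CPM was close to the lymphocyte reference, and it was highest in WT 3 and ArcSwe 3, the libraries with the most erythroid transcripts in capillary cells. A *Clu* UMI was found in 58.4% to 63.7% of arterial endothelial cells and in 1.42% to 4.31% of capillary cells, and in 32.8% to 39.5% and 0.467% to 1.75% after each cell was thinned to 1000 UMIs.

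*Apod* (chromosome 16, 31296192 to 31314808, minus strand), a lipocalin that binds small lipids, ran in the opposite direction along the vessel. Its level was 121 to 237 CPM in venous endothelium, 45.8 to 84.9 CPM in capillary endothelium and 10.9 to 22.3 CPM in arterial endothelium. Venous exceeded capillary endothelium in 6 of 6 mice, by 1.47 ± 0.28 log2 units. Pericytes, at 11.9 to 67.8 CPM on 37 UMIs in all, lay between capillary and arterial endothelium, and smooth muscle and microglia were at 6.35 CPM or less.

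The zones were themselves heterogeneous, and the 7 endothelial clusters that made them up are described here without a test. Within arterial endothelium, the cluster led by *Fbln5*, *Cytl1* and *Mgp* held 1267 to 1449 CPM of *Clu*, and the cluster led by *Gkn3* and *Vegfc* held 189 to 254 CPM. *Apoe* ran the other way between these clusters, with 469 to 615 CPM in the former and 1122 to 1409.9 CPM in the latter. Within venous endothelium, the cluster marked by *Ackr1* and *Lrg1* held 254 to 443 CPM of *Apod* and 1638 to 2304 CPM of *Apoe*, and the cluster led by *Cyp2e1* and *Icam1* held 63.7 to 98.8 CPM of *Apod* and 645 to 997 CPM of *Apoe*. Neither pair of ranges overlapped. Among capillary clusters, *Apod* was lowest, at 23.8 to 53.9 CPM, where *Clu* was highest, at 9.8 to 45.9 CPM.

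**Figure D2:**
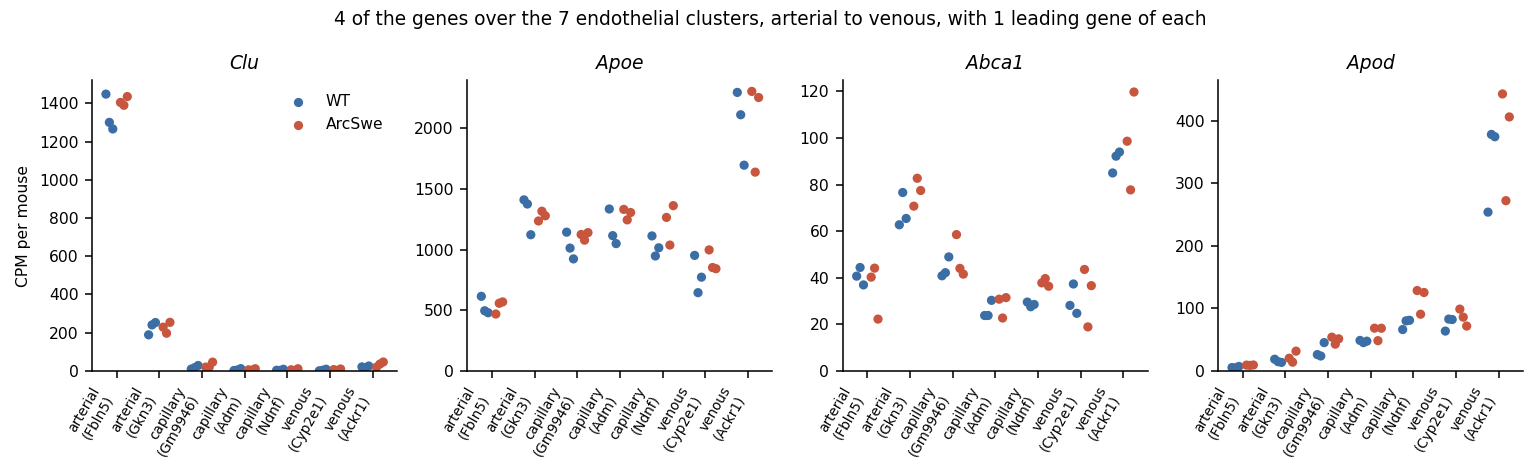
CPM of 4 of the genes in the 7 endothelial clusters, ordered from arterial to venous and labelled with zone and 1 leading gene; each point is 1 mouse (blue WT, red ArcSwe), and every axis starts at 0. *Clu* is highest in the *Fbln5* cluster (1267 to 1449 CPM) and *Apod* and *Apoe* in the *Ackr1* cluster, with WT and ArcSwe points intermixed in most clusters.

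*Abca1* (chromosome 4, 53030787 to 53159895, minus strand), which exports cholesterol and phospholipid to apolipoproteins, was highest in microglia among the classes with 6 sums. It stood there at 306, 316 and 397 CPM in the WT mice and at 293, 455 and 299.7 CPM in the ArcSwe mice, 2.54 ± 0.22 log2 units above arterial endothelium (6 of 6 mice). Arterial (51.9 to 68.8 CPM) and venous endothelium (31.2 to 77.8 CPM) were not separated (difference 0.15 ± 0.56). Capillary endothelium, at 28.7 to 38.8 CPM, lay under venous endothelium in 5 of 6 mice and above smooth muscle, at 2.91 to 15.2 CPM, in 6 of 6. Pericytes held 15 *Abca1* UMIs in all. Within the zones, *Abca1* was highest in the *Ackr1* venous cluster, at 77.7 to 119.7 CPM, and lowest in the *Cyp2e1* venous and *Adm* capillary clusters, at 18.9 to 43.6 and 22.7 to 31.5 CPM.

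Of the receptors and adaptors, *Lrp1* (chromosome 10, 127538161 to 127621148, minus strand) was a gene of pericytes, microglia and smooth muscle rather than of endothelium. Pericytes (293 to 429 CPM) and microglia (294 to 484 CPM) were not separated, with a difference of 0.02 ± 0.38 log2 units and pericytes higher in 3 of 6 mice. The microglial level differed by cluster. It was 352 to 540 CPM in microglial clusters with a median ribosomal protein share under 3%, a kind the study removed. In the cluster led by *Cx3cr1* it was 275, 255 and 398 CPM in the WT mice and 240 and 159 CPM in ArcSwe 1 and ArcSwe 3. Clusters led by *Cst7* held 209 to 329 CPM. Smooth muscle followed at 117 to 176 CPM. No sum of an endothelial zone exceeded 22.45 CPM. The arterial, capillary and venous levels descended in 6 of 6 mice at each step, by 0.32 ± 0.22 and 0.84 ± 0.31 log2 units.

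*Sorl1* (chromosome 9, 41964720 to 42124297, minus strand) encodes the sorting receptor that routes the amyloid precursor away from its cleavage. Among the 6 classes compared it was read mainly in microglia and smooth muscle. Lymphocytes, outside these classes, held more, at 224 CPM over all mice. Microglia held 27.1 to 53.6 CPM and smooth muscle 6.6 to 13.3 CPM, a difference of 1.78 ± 0.58 log2 units (6 of 6 mice). The endothelial zones held 26 UMIs in all, and pericytes held 3, which all came from ArcSwe 3. *Picalm* (chromosome 7, 90130213 to 90213465, plus strand), the clathrin assembly adaptor, was at 762 to 1281 CPM in microglia and at 202 to 336 CPM in the other 5 classes. Microglia exceeded arterial endothelium by 1.69 ± 0.24 log2 units (6 of 6 mice), and arterial exceeded capillary endothelium by 0.14 ± 0.08 (6 of 6 mice). From capillary endothelium through venous endothelium and pericytes to smooth muscle, each step was 0.18 log2 units or less and held in 3 to 5 of 6 mice.

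*Mme* (chromosome 3, 63241537 to 63386030, plus strand) gave 163 UMIs over all 6 classes. It stood at 7.07, 3.47 and 0.41 CPM in smooth muscle of the WT mice and at 3.22, 6.78 and 3.68 CPM in that of the ArcSwe mice, and at no more than 3.69 CPM in any endothelial zone. Pericytes had 0 UMIs, against a floor of 3 counts in 49877 to 324686 UMIs per mouse, and microglia had 1. *Ide* (chromosome 19, 37268743 to 37337852, minus strand), a zinc protease found in many tissues, was read in all 6 of these classes. It ranged from 38.7 to 50.3 CPM in arterial, 31.5 to 40.4 CPM in capillary and 31.5 to 42.9 CPM in venous endothelium, from 19.3 to 36.8 CPM in smooth muscle, from 13.2 to 30.8 CPM in microglia and from 11.9 to 34.4 CPM in pericytes. Arterial exceeded capillary endothelium in 6 of 6 mice, by 0.30 ± 0.25 log2 units, and none of the later neighbours did so in every mouse.

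Perivascular macrophages, which line larger vessels outside the microglial compartment, were few, and only WT 3 and ArcSwe 3 had 10 or more, so that no test was made. In these mice *Apoe* reached 43068 and 32131 CPM, and every one of the 20 and 17 cells held an *Apoe* UMI. Summed over all mice of a genotype, *Apoe* stood at 49228 CPM in 28 WT cells (95% exact Poisson interval 47577 to 50922) and at 37020 CPM in 25 ArcSwe cells (35613 to 38468), intervals that cover counting error only. *Abca1* (381 and 496 CPM) and *Picalm* (572 and 1021 CPM) were also present, and *Lrp1* stood at 117 and 113 CPM on 8 UMIs in each genotype. *Apod* gave 24 UMIs in WT and 2 in ArcSwe cells, all 24 of the former from WT 3. The fibroblast markers summed to 223 CPM in the macrophages of WT 3 and to 0 CPM in those of ArcSwe 3. A cluster of 25 fibroblasts held 2817 CPM of *Apod* over all mice, and the part of fibroblast RNA in the WT 3 value was not tested. In the macrophages *Sorl1* and *Mme* had no UMI, where 3 counts would have been 44.0 and 42.6 CPM. The 7 perivascular macrophage markers summed to 6650 and 8114 CPM in these cells and to 20.1 CPM or less in microglia, and the 8 microglial markers were at 4084 and 2967 CPM in the perivascular macrophages.

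The genes whose levels ran most like each member's were sought among 12190 genes, over 38 sums of the 7 classes, as Pearson correlations of log2(CPM + 1) given as description. The points share libraries, and the class contrast sets most of each value. *Clu* was closest to *Ccdc88c*, *Nos1* and *Fbln5* (r = 0.919, 0.915 and 0.908), genes that were high in arterial endothelium. *Lrp1* was closest to *Adap2*, *Inpp4b* and *Adap2os* (0.973, 0.972 and 0.970), high in pericytes, where *Adap2os* lies antisense to *Adap2* and their reads can be told apart only by strand. *Abca1* was close to *Chka* (0.969), and *Picalm* was closest to *Fnip1*, *Fbxw11* and *Fcgr4* (0.965, 0.957 and 0.949), all higher in microglia and perivascular macrophages than in endothelium. *Apoe* was closest to *Oasl1*, *Stab1* and *Eef1akmt4* (0.888, 0.882 and 0.875), *Apod* to *Man2a1*, *Pde7b* and *St8sia4* (0.876, 0.862 and 0.850), *Sorl1* to *Il6*, *Dusp27* and *Slmap* (0.926, 0.903 and 0.897), and *Ide* to *Slain2*, *Ctif* and *Mfhas1* (0.938, 0.930 and 0.928). For *Mme* (*Gadd45b*, *Ptgis* and *Itga3*, 0.853, 0.852 and 0.849) the low counts leave little to compare.

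The comparison of genotypes asks whether a mouse brain with amyloid on its vessels carries altered levels of these genes in the vessel wall and its neighbours. None of the members was called in any of the 6 classes in edgeR's quasi-likelihood test on the sums of 3 WT and 3 ArcSwe mice (adjusted p under 0.05 after Benjamini-Hochberg adjustment over all genes tested in the class). The counts were 0 of 7 members tested in arterial endothelium, where 0.00928% of 10780 genes were called, 0 of 7 in capillary (0% of 11972 genes) and 0 of 7 in venous endothelium (0% of 10357 genes), 0 of 7 in smooth muscle (0% of 10149 genes), 0 of 3 in pericytes (0% of 2023 genes) and 0 of 7 in microglia (0.158% of 10730 genes, and 0.149% higher in ArcSwe). At an unadjusted p under 0.05 there was 1 member in each of arterial and capillary endothelium, smooth muscle and microglia, and 0 in venous endothelium and pericytes. Over all genes tested, 407 of 10780, 539 of 11972, 448 of 10149 and 1146 of 10730 did so in the former 4 classes. DESeq2 also called 0 members in each class. With the replicate number of the labels as a block, edgeR called 5, 2 and 2 genes in arterial, capillary and venous endothelium, 0 in smooth muscle and pericytes and 54 in microglia, and 0 members in each. *Sorl1* and *Mme* were too low to test in the endothelial zones, *Apod* and *Mme* in smooth muscle and microglia, and all but *Apoe*, *Lrp1* and *Picalm* in pericytes. The median log2 fold change of the members tested, ArcSwe minus WT, was 0.076, 0.193 and 0.205 in arterial, capillary and venous endothelium, 0.185 in smooth muscle, −0.020 in pericytes and 0.039 in microglia, beside medians over all genes tested of −0.046 to 0.000.

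**Figure D3:**
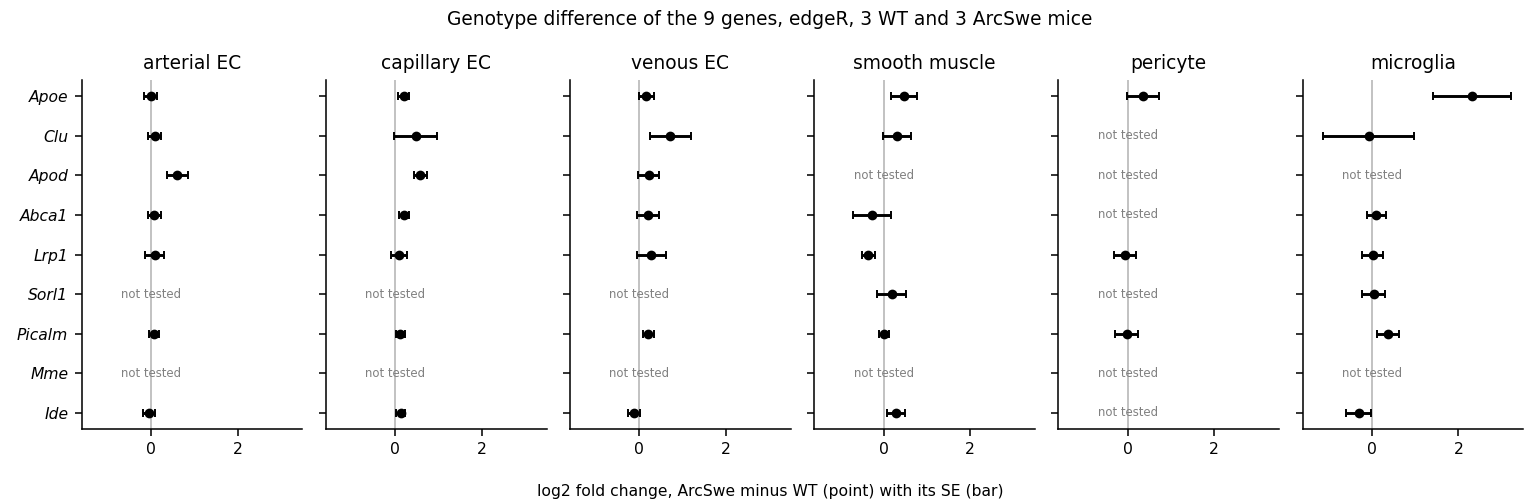
Log2 fold change, ArcSwe minus WT, of the 9 genes in 6 classes from edgeR (points) with its standard error (bars), 3 mice per genotype. Genes below the count filter are marked as not tested; *Apoe* in microglia lies farthest from 0, at 2.31 with a standard error of 0.91, and no point passed the adjusted threshold.

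Among the members tested, the 3 ArcSwe values all lay on one side of the 3 WT values in a single case. There was 0 of 7 in arterial, capillary and venous endothelium, where 9.09%, 10.5% and 9.7% of all genes tested showed no overlap, 0 of 3 in pericytes (8.55%) and 0 of 7 in microglia (19.1%). In smooth muscle there was 1 of 7, *Lrp1*, in a class where 10.5% of all genes tested did so. *Lrp1* in smooth muscle was at 176, 167 and 140.2 CPM in the WT mice and at 137, 121 and 117 CPM in the ArcSwe mice. All ArcSwe values were lower, by a narrow gap between WT 3 and ArcSwe 1. The log2 fold change was −0.35 (SE 0.15, adjusted p = 0.996 in edgeR), and without WT 3 it was −0.50 (adjusted p = 0.155 in edgeR). Without any other mouse it lay between −0.45 and −0.26, with adjusted p of 0.986 or more in edgeR. In the pericytes *Lrp1* differed by −0.07 (SE 0.25) and in microglia by 0.02 (SE 0.23).

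*Apod* was the member with the smallest p in endothelium. In capillary endothelium it was at 46.5, 45.8 and 61.4 CPM in the WT mice and at 80.9, 58.6 and 84.9 CPM in the ArcSwe mice. WT 3 lay above ArcSwe 2, so that the groups overlapped, and each ArcSwe mouse lay above the WT mouse of the same replicate number. With the replicate number as a block the log2 fold change was 0.57 (SE 0.11, adjusted p = 0.321 in edgeR). The log2 fold change was 0.58 (SE 0.15, adjusted p = 0.895 in edgeR), and it lay between 0.46 and 0.72 in all alternatives, with adjusted p from 0.219 to 0.999 in edgeR or DESeq2. In arterial endothelium it was 0.61 (SE 0.25, adjusted p = 0.9998 in edgeR), and without ArcSwe 3, whose 22.3 CPM was the highest value, it was 0.29. In venous endothelium, where the gene was highest, the difference was 0.22 (SE 0.24), with 121, 155 and 223 CPM in the WT and 202, 125 and 237 CPM in the ArcSwe mice.

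None of the other endothelial and mural differences passed the threshold. *Apoe* differed by −0.01 (SE 0.14), 0.19 (SE 0.12) and 0.16 (SE 0.18) in arterial, capillary and venous endothelium. In smooth muscle *Apoe* was at 65.1, 56.7 and 110.5 CPM in the WT and at 81.4, 60.1 and 164 CPM in the ArcSwe mice, a log2 fold change of 0.47 (SE 0.30). The 2 highest of these, WT 3 and ArcSwe 3, were also the libraries with the most erythroid (304 and 528 CPM) and microglial marker transcripts (471 and 479 CPM) in smooth muscle, whose part in the *Apoe* values was not tested. *Clu* differed by 0.09 (SE 0.15) in arterial endothelium, where it was highest, by 0.47 (SE 0.50) in capillary and by 0.72 (SE 0.46) in venous endothelium. *Abca1* differed by 0.21 (SE 0.11) in capillary endothelium. *Picalm* differed by 0.02 to 0.21 in the endothelial zones and smooth muscle, and *Ide* by −0.12 to 0.29 in the same 4 classes. *Mme* was not tested, and its capillary values were 1.39, 1.00 and 1.098 CPM in the WT and 0.77, 0.25 and 0.86 CPM in the ArcSwe mice, on 38 UMIs in all. Below the count filter, values did not overlap for *Mme* in capillary and venous endothelium (38 UMIs each) and *Ide* in pericytes (16 UMIs). Each was lower in ArcSwe and none was tested. In all other cases below the filter the values overlapped. The share without overlap over all genes below the filter was not computed, so these cases have no background beside them.

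In microglia, *Apoe* showed the largest fitted difference of any member in any class. It stood at 345, 303 and 2955 CPM in WT 1, 2 and 3 and at 6138, 1599.9 and 7834 CPM in ArcSwe 1, 2 and 3. ArcSwe 1 and ArcSwe 3 lay above all WT mice, but WT 3 lay above ArcSwe 2. The log2 fold change was 2.31 (SE 0.91, adjusted p = 0.413 in edgeR). Without WT 3 it was 4.03 (SE 0.61, adjusted p = 0.00763 in edgeR) and past the threshold, and without any other mouse it lay between 1.87 and 2.75 with adjusted p from 0.390 to 0.978 in edgeR. Without the filter on low counts the fold change was the same and the adjusted p was 0.00849 in edgeR. Without the clusters of low ribosomal content the log2 fold change was 1.53 (adjusted p = 0.463 in edgeR). That fit rested on 10 microglia in ArcSwe 2 and 62 in WT 3, against 709 and 568 in WT 1 and WT 2. The difference between this change and that of *Apoe* in capillary endothelium was 2.61 (SE 0.93, adjusted p = 0.474 in edgeR, mouse as a block). This interaction test called 0% of 12719 genes, with 1183 at an unadjusted p under 0.05, and without WT 3 the *Apoe* interaction was 3.59 (adjusted p = 0.0409 in edgeR) and without the filter on low counts 2.57 (adjusted p = 0.0149 in edgeR).

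**Figure D4:**
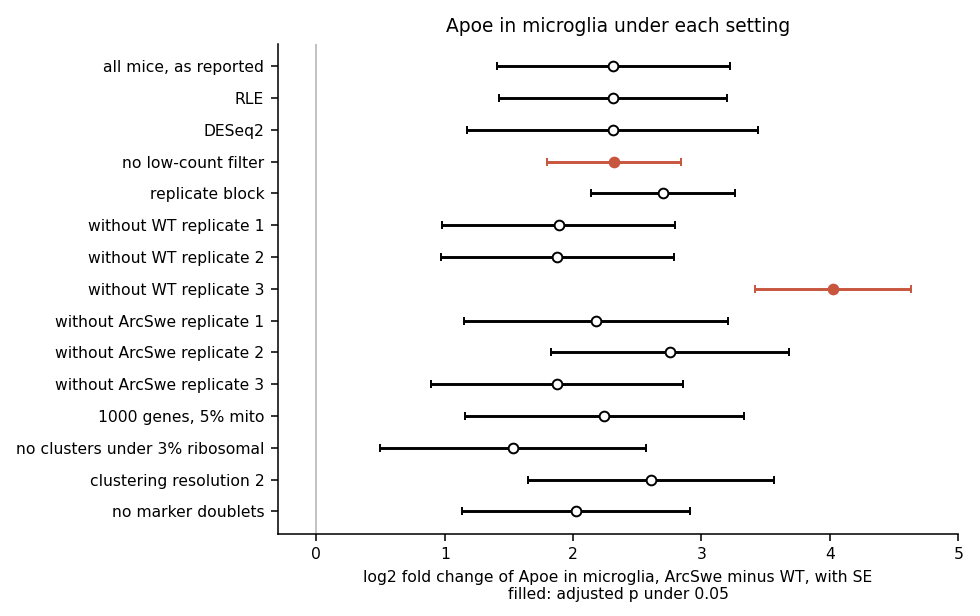
Log2 fold change of *Apoe* in microglia, ArcSwe minus WT, with its standard error, under each setting; filled points have an adjusted p under 0.05. The estimate lies above 0 in every setting, and it passes the threshold without WT replicate 3 (4.03) and without the low-count filter (2.32).

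In 4 of the 6 mice most *Apoe* UMIs came from few cells. A pair of microglial clusters led by *Cst7*, a cystatin that is a marker of disease-associated microglia, held 324 of the 6520 microglia. They made up 0.804%, 1.38% and 0.864% of the microglia of the WT mice and 12.4%, 2.71% and 7.88% of those of the ArcSwe mice, and 48.5%, 25.8% and 67.9% of the microglial *Apoe* UMIs of the WT mice and 90.2%, 71.6% and 69.7% of those of the ArcSwe mice. In WT 1 and WT 2 the cluster led by *Cx3cr1* carried 42.5% and 66.5% of them. In WT 3, 12 cells of the clusters led by *Cst7* carried 3780 of the 5564 *Apoe* UMIs, 50719 CPM, a level above those of 16886 and 16757 CPM in the 127 and 159 such cells of ArcSwe 1 and ArcSwe 3. The 7 perivascular macrophage markers summed to 282 CPM in these 12 cells of WT 3, on 21 UMIs with *Cd163*, *Lyve1*, *F13a1* and *Cbr2* at 0, and to 6.73 and 31.8 CPM in those of ArcSwe 1 and ArcSwe 3. In the perivascular macrophages of WT 3 they stood at 6650 CPM and *Apoe* at 43068 CPM, and the part of such cells in the WT 3 value was not tested. A further cluster led by *Cxcl10* and *Tnf* held 20034 and 16757 CPM of *Apoe* in ArcSwe 1 and ArcSwe 3 and was mostly of ArcSwe 3, with 229 of its 272 cells. Because these clusters were drawn from the same cells, their shares and levels are given without a test.

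*Apoe* was lower in the other clusters. In the cluster led by *Cx3cr1*, the fractalkine receptor of homeostatic microglia, it stood at 166, 237 and 220 CPM in the WT mice and at 415 and 3056 CPM in ArcSwe 1 and ArcSwe 3, with 4 cells in ArcSwe 2. These WT values were within the range of the lymphocyte reference and above the smooth muscle value of the same mouse. Smooth muscle itself lay under that reference, and the part of picked-up RNA in these microglial values was not tested. This cluster held 70.5% and 64.0% of the microglia of WT 1 and WT 2 but 1.24% to 14.9% of those of the other 4 mice, in which most microglia, 72.8% to 95.5%, had a median ribosomal protein share under 3%. In the cluster led by *Ptpro*, the largest of low ribosomal content, *Apoe* stood at 184, 175 and 1140 CPM in the WT and at 372, 159 and 823 CPM in the ArcSwe mice, again highest in WT 3 and ArcSwe 3. The microglial composition therefore differed between libraries of the same genotype, and its part in the difference was not tested. Transcripts of other cells also differed. In microglia the erythroid markers summed to 33.0, 58.1 and 982 CPM in the WT mice and to 1219, 35.6 and 1196 CPM in the ArcSwe mice, highest in the 3 mice with the most *Apoe*. The 8 endothelial markers summed there to 105, 133 and 416 CPM in the WT and to 312, 235 and 799 CPM in the ArcSwe mice, beside at least 15044 CPM in the endothelial zones. The part of both in the *Apoe* values was not tested.

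**Figure D5:**
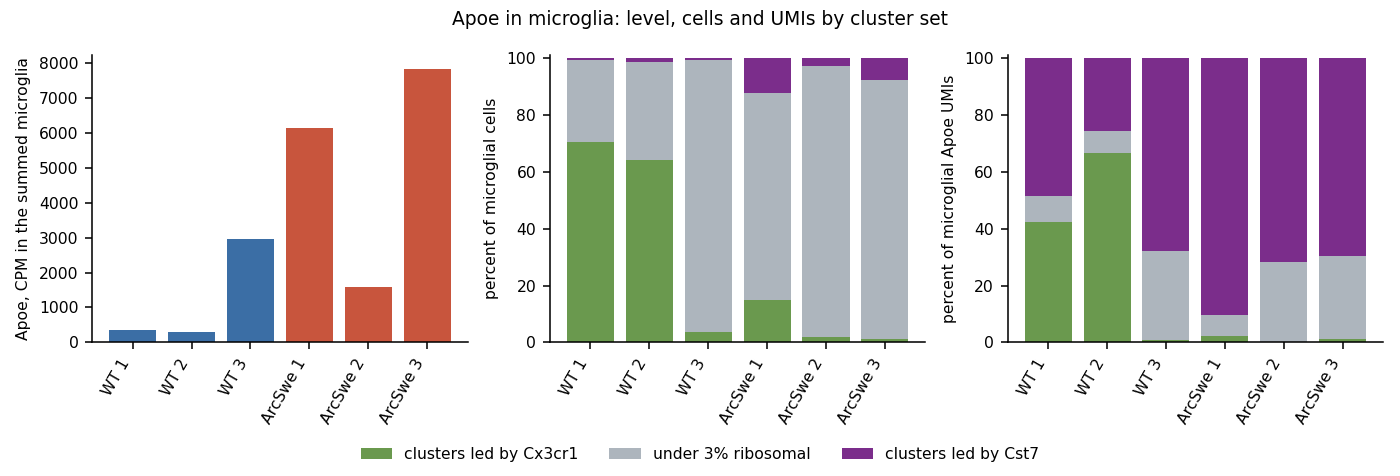
*Apoe* in the microglia of each mouse: level in CPM (left, blue WT, red ArcSwe), percent of microglial cells by set of clusters (middle) and percent of microglial *Apoe* UMIs by the same sets (right). The clusters led by *Cst7* hold 0.804% to 12.4% of the cells and 25.8% to 90.2% of the *Apoe* UMIs.

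The disease-associated microglia genes moved with *Apoe* in part. Of 11 such genes tested besides *Apoe*, *Cst7* rose (log2 fold change 5.55, SE 0.66, adjusted p = 0.0326 in edgeR), as did the chemokine *Ccl6* (1.83, SE 0.26, adjusted p = 0.0484 in edgeR), and 7 of 11 did not overlap, all higher in ArcSwe, beside 19.1% of all genes tested in microglia. Both calls were lost without any 1 of WT 1, WT 2, ArcSwe 1 or ArcSwe 3, with adjusted p of 0.109 to 0.145 for *Cst7* and 0.127 to 0.272 for *Ccl6* in edgeR, while the log2 fold changes without 1 mouse stayed at 5.08 to 5.97 and 1.65 to 2.02. *Cst7* stood at 4.92, 5.96 and 13.8 CPM in the WT mice and at 380.5, 94.9 and 500.5 CPM in the ArcSwe mice, so that WT 3, unlike for *Apoe*, lay close to the other WT mice. *Spp1*, which encodes osteopontin, resembled *Apoe* in this respect, with 1.23, 3.23 and 160 CPM in the WT and 26.5, 5.93 and 193 CPM in the ArcSwe mice. The 8 microglial identity markers summed to 13579 to 14966 CPM in the WT and to 10958 to 11845 CPM in the ArcSwe mice.

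The remaining members showed little in microglia. *Picalm* differed by 0.37 (SE 0.26), with WT 3 lowest at 762 CPM. *Abca1*, *Lrp1* and *Sorl1* differed by 0.10 (SE 0.22), 0.02 (SE 0.23) and 0.04 (SE 0.27), and each was highest in WT 3 or ArcSwe 2. *Ide* differed by −0.30 (SE 0.29). *Clu* differed by −0.07 (SE 1.05), on 108 UMIs, with its highest values of 23.9 and 11.4 CPM in WT 3 and ArcSwe 3.

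Of the other genes of the pathway, 0 were called in any class among 28 of lipid transport, 23 of lipoprotein receptors and endocytic sorting, and 21 of amyloid degradation and export. The numbers tested per list were 13 to 19 in the endothelial zones, smooth muscle and microglia and 4 to 9 in pericytes. In microglia, 11 genes of these lists were higher without overlap and 7 lower, of 53 tested, where 19.1% of all genes tested did not overlap. The list medians there were 0.151 for lipid transport, 0.086 for the receptors and 0.411 for degradation and export, beside −0.046 over all genes. *Lpl*, lipoprotein lipase, was at 7.38, 8.69 and 60.01 CPM in the WT and at 152, 69.2 and 187 CPM in the ArcSwe mice (2.73, SE 0.73, adjusted p = 0.224 in edgeR). *Lrp8*, a receptor for apolipoprotein E, was at 2.65 CPM or less in the WT and at 3.68 CPM or more in the ArcSwe mice (1.99, SE 0.55, adjusted p = 0.248 in edgeR). The values of both genes did not overlap between genotypes, and neither passed the threshold.

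In the vessel wall, the pathway genes with the largest differences among those without overlap had adjusted p-values of 0.967 or more in edgeR. In arterial endothelium these were *Mmp2* (log2 fold change 1.32, 2.19 against 5.33 CPM on average), *Rxra* (0.60) and *Lrp6* (−0.10). In capillary endothelium they were *Lcat* (0.71), *Lrp4* (0.65) and the cholesterol exporter *Abcg1*, at 14.98, 16.98 and 18.7 CPM in the WT and 21.2, 20.6 and 20.9 CPM in the ArcSwe mice (0.33). In venous endothelium *Ace*, a peptidase that can cut amyloid beta, was at 17.8, 16.8 and 20.2 CPM in the WT and 24.98, 24.4 and 28.1 CPM in the ArcSwe mice (0.52, SE 0.16), beside *Nr1h3* (0.46) and *Abca7* (−0.43). In smooth muscle they included *Plau* (0.95) and *Mmp14* (−0.29), and in pericytes *Cd2ap* alone, lower by 0.53 on the log2 scale.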

How the data were processed

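The authors deposited 1 matrix of UMI counts per mouse, made with Cell Ranger 7.0.0 on mm10 with added sequences per the labels and the study's methods; the counts are raw and whole. The members and gene lists were chosen with earlier results of these data known. Cells with 500 to 4500 genes and under 10% mitochondrial counts were kept, normalized to 10000 counts per cell, and clustered with leidenalg 0.10.2. The settings were 2000 variable genes without the members and lists, 30 components, 20 neighbours and a Leiden resolution of 1. Mural, myeloid and glial clusters were then clustered once more, with fewer components. Classes were named from markers. Clusters of mixed identity were left out, which was the treatment of doublets. Endothelial clusters without a marker of their best-matching zone among their 10 leading genes, 7320 cells, were also in no class. Endothelial cells of the zones with a *Cx3cr1* or *Aif1* UMI, 3962 of 21901, were left out, as in the study. As in the study, Rik genes, pseudogenes, and mitochondrial and ribosomal protein genes were set aside, leaving 29582 genes. Counts were summed per mouse and class with at least 10 cells. Summed classes held 49877 to 7833830 UMIs per mouse. Genotypes were compared with edgeR 4.0.16 (TMM, filterByExpr, quasi-likelihood test, Benjamini-Hochberg). DESeq2 1.42.0 (R 4.3.3) was an alternative, and the study's low-ribosomal microglial cluster, which it removed, was kept here and left out in another. Levels used a pseudocount of 1. The edgeR test was also run on simulated counts with known changes, with means and dispersions taken from the fits to these data. It recovered 27% of 2-fold changes in microglia, 43% in pericytes and 70% to 77% in the other classes. Of 4-fold changes it recovered 88%, 83% and 93% to 98%. Positions follow the GRCm38 annotation supplied. The named genes were the members, list genes past the threshold, the 3 list genes per class with the largest difference among those without overlap, and the 3 genes most like each member. Some genes that met this rule are not reported here. Intervals cover counting error only. The replicate numbers were checked as pairs: the deviations of same-numbered mice correlated by 0.129 to 0.423 in capillary and 0.115 to 0.344 in venous endothelium, but by −0.257 to 0.481 in microglia, and below 0.1 for at least 1 pair in arterial endothelium, smooth muscle and pericytes. The labels give no shared origin, so the numbers were not taken as pairs.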

Additional observations from a re-analysis of the deposited data

How the results depend on the processing

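Of 563 recomputed log2 fold changes (the members, and the *Apoe* difference between microglia and capillary endothelium), 506 kept their direction and their side of the threshold, 4 passed the threshold in addition, 0 lost it and 53 turned direction; the cause was not tested for these. No member was called in endothelium, smooth muscle or pericytes under any alternative, and in microglia 1, *Apoe*, was called without the low-count filter and 0 to 1 without 1 mouse. Of the called list genes, in alternatives added after the data were seen, *Ccl6* also lost its call without cells holding 2 or more markers of another class (1.63, adjusted p = 0.0829 in edgeR), and outside the fits without 1 mouse *Cst7* passed the threshold in each. The numbers of genes called in edgeR, 1, 0, 0, 0, 0 and 17 in arterial, capillary and venous endothelium, smooth muscle, pericytes and microglia, moved more. DESeq2 called 12, 9, 4, 1 and 185 genes in the classes other than pericytes. Without the low-count filter the counts were 94, 6, 75, 67, 3 and 274. In arterial endothelium 0 genes were called at a clustering resolution of 2. In microglia 37 were called with RLE size factors, 39 with at least 1000 genes and under 5% mitochondrial counts per cell, and 574 without the clusters of low ribosomal content. Fits without those clusters held 10 microglia in ArcSwe 2 and 62 in WT 3. Without 1 mouse, 0 to 1 genes were called in venous endothelium and in pericytes, the 1 in each without WT 3, and 2 to 995 in microglia, with 995 without WT 3, 58 without ArcSwe 2 and 2 without each of the other mice. The genotype effect differed between microglia and capillary endothelium for 0 genes, and for 105 without the filter, 15 in the stricter cells, 108 without the clusters of low ribosomal content, 3 at a resolution of 2, and 0 to 170 without 1 mouse (170 without WT 3 and 7 without ArcSwe 2).

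The replicate block, a fit with the replicate number of the labels as a block, called 5, 2, 2, 0, 0 and 54 genes in the 6 classes in the order above and changed no member's call. The neighbouring classes gave 0 pairs past the threshold under all alternatives. The smallest adjusted exact permutation p ran from 0.0625 (36 pairs, without cells holding markers of another class) to 0.0879. Because p over 6 mice cannot fall under 0.031, too few pairs lay there for any to pass, so this count does not measure stability.

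Some members turned direction. At a clustering resolution of 2 the log2 fold change was 0.0532 for *Apoe*, −0.0787 for *Lrp1* and 0.0202 for *Ide* in arterial endothelium, −0.0083 for *Clu* in capillary endothelium and −0.0547 for *Lrp1* in microglia. With the *Cx3cr1* or *Aif1* UMI cells kept it was 0.0034 for *Apoe* and 0.04 for *Ide* in arterial endothelium. In the stricter cells it was 0.1724 for *Abca1* and −0.0861 for *Sorl1* in smooth muscle and −0.1171 for *Lrp1* in microglia. Without the low-count filter it was 0.0129 for *Picalm* in pericytes and −0.0309 for *Lrp1* and −0.0065 for *Sorl1* in microglia. Without the clusters of low ribosomal content it was 0.0501 for *Picalm* in pericytes and −0.3864 for *Abca1* and −0.0526 for *Lrp1* in microglia. Without cells holding 2 or more markers of another class it was 0.0476 for *Picalm* in pericytes and −0.0122 for *Sorl1* in microglia.

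Leave-one-out ranges crossed 0 for the following log2 fold changes. In arterial endothelium they ran from −0.1193 to 0.0718 for *Apoe*, −0.0185 to 0.1956 for *Clu*, −0.0205 to 0.1941 for *Abca1*, −0.1001 to 0.2373 for *Lrp1* and −0.1518 to 0.0413 for *Ide*. In capillary endothelium they ran from −0.2164 to 1.0707 for *Clu* and −0.0632 to 0.1948 for *Lrp1*. In venous endothelium they ran from −0.0611 to 0.4373 for *Abca1*. In smooth muscle they ran from −0.0733 to 0.7921 for *Apoe*, −0.6867 to 0.2819 for *Abca1*, −0.0486 to 0.5203 for *Sorl1* and −0.0344 to 0.0469 for *Picalm*. In pericytes they ran from −0.585 to 0.7335 for *Apoe*, −0.1552 to 0.1117 for *Lrp1* and −0.1668 to 0.0558 for *Picalm*. In microglia they ran from −1.0354 to 1.9593 for *Clu*, −0.0829 to 0.1982 for *Abca1*, −0.1421 to 0.1851 for *Lrp1* and −0.1134 to 0.2871 for *Sorl1*.

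Leaving out 1 mouse leaves 2 in an arm. Depth limits the pericytes, in which 3 members were tested. The alternatives for perivascular macrophages were not run, since 2 mice had enough cells.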

Other observations

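Several classes outside the comparisons held members at high levels. The endothelial clusters of no named zone are given over all mice, with cells holding a *Cx3cr1* or *Aif1* UMI still in. The clusters of 3877, 1851 and 1571 cells held 57.6, 6.14 and 15.6 CPM of *Clu*. Their *Picalm* stood at 434.5, 313 and 465 CPM. Fenestrated endothelial cells, 60 to 171 per mouse, had 178 to 270.5 CPM of *Clu*, below arterial endothelium and above the capillary and venous zones. Their *Abca1* ranged from 5.84 to 33.2 CPM over all mice, on 2 to 19 UMIs per mouse, and the genotypes were not compared in these cells. *Sorl1* was higher in lymphocytes, at 172 to 323 CPM, than in any class compared above, and *Abca1* stood there at 85.0 to 205 CPM. In the 10 to 13 astrocytes of WT 3, ArcSwe 1 and ArcSwe 3, *Apoe* was at 3135, 3428 and 5813 CPM and *Clu* at 723, 386 and 960 CPM. The mural cells assigned neither to smooth muscle nor to pericytes formed 3 clusters, in which *Apoe* ranged from 63.6 to 3322 CPM over all mice, and they held 9.56 to 20.2 CPM of *Mme* per mouse, above every class compared above.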
